A study of Mus musculus with 40 samples.

Results

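Gene expression in the rib callus of immature mice was compared between 5 days and 2 days after rib resection, by bulk RNAseq of whole tissue pieces. The 8 libraries were chosen by their labels alone, 4 at each stage, and are 8 of the 39 libraries analysed and of 40 labelled in the series. Libraries of the series came from immature and mature mice, from before surgery to 14 days after it. All animals were wild-type C57BL/6 females, 7 weeks old in the immature groups and over 10 months old in the mature groups. Stages are named in days post-resection, so that 2dpr is the 2 day and 5dpr the 5 day stage, and all mice of these stages had a rib resected. The pieces held bone and the intercostal muscle next to it, and cell types were not separated. Immature mice gave n = 4 libraries at 2dpr (replicates 1 to 4) and n = 4 at 5dpr (replicates 2 to 5), and values below follow that order. Mature mice, used for comparison, gave n = 4 at 2dpr and n = 3 at 5dpr, where replicate 2 was not analysed here. Total counts were 9188358, 8206795, 11561548 and 8160948 in the immature 2dpr libraries. The immature 5dpr libraries held 6057756, 7939173, 21537070 and 10943525 counts. Levels are CPM, counts scaled to library size after TMM normalization. More than a single sequencing run was used, the run of each library is not given in the labels, and its part in the results was not tested.

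A bone defect first fills with clotted blood and with neutrophils and monocytes, which clear debris and release chemokines. Stromal progenitors from the periosteum then multiply and lay down a collagen-rich fibrous tissue, in which cartilage and woven bone form. Muscle torn beside the bone regenerates in the same period, when satellite cells fuse into fibers that carry embryonic and neonatal myosin before the adult forms.

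From 2dpr to 5dpr, the callus of immature mice lost transcripts from the lists of monocytes and macrophages and of chemokines and gained those of fibrous matrix, of the insulin-like growth factor (IGF) list and of newly formed muscle fibers. Of 21204 genes tested, 1707 passed an adjusted p of 0.05 (8.05%), of which 926 rose (4.37% of genes tested) and 781 fell (3.68%). These shares are the background for the list counts below, and a list with few calls can lie near them. Among the 1707 called genes, 622 differed at least 2 times and 153 at least 4 times. The stages did not overlap in 1561 of them, so that lack of overlap was the usual case among called genes and adds little to a call. The test was edgeR's quasi-likelihood test with Benjamini-Hochberg adjustment over all genes. All 39 libraries of the series were fitted together, so the p-values rest on a replicate spread estimated over all groups. With only the 8 libraries compared in the fit, 2988 genes were called. The median log2 fold change of all tested genes was 0.01. Correlations of log2 CPM across genes were 0.973 to 0.982 between 2dpr libraries, 0.966 to 0.983 between 5dpr libraries and 0.960 to 0.971 between the stages. Leaving out 5dpr replicate 4 gave 1064 called genes and leaving out 2dpr replicate 3 gave 1065. The plot of list members shows the gene groups described below.

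**Figure D1:**
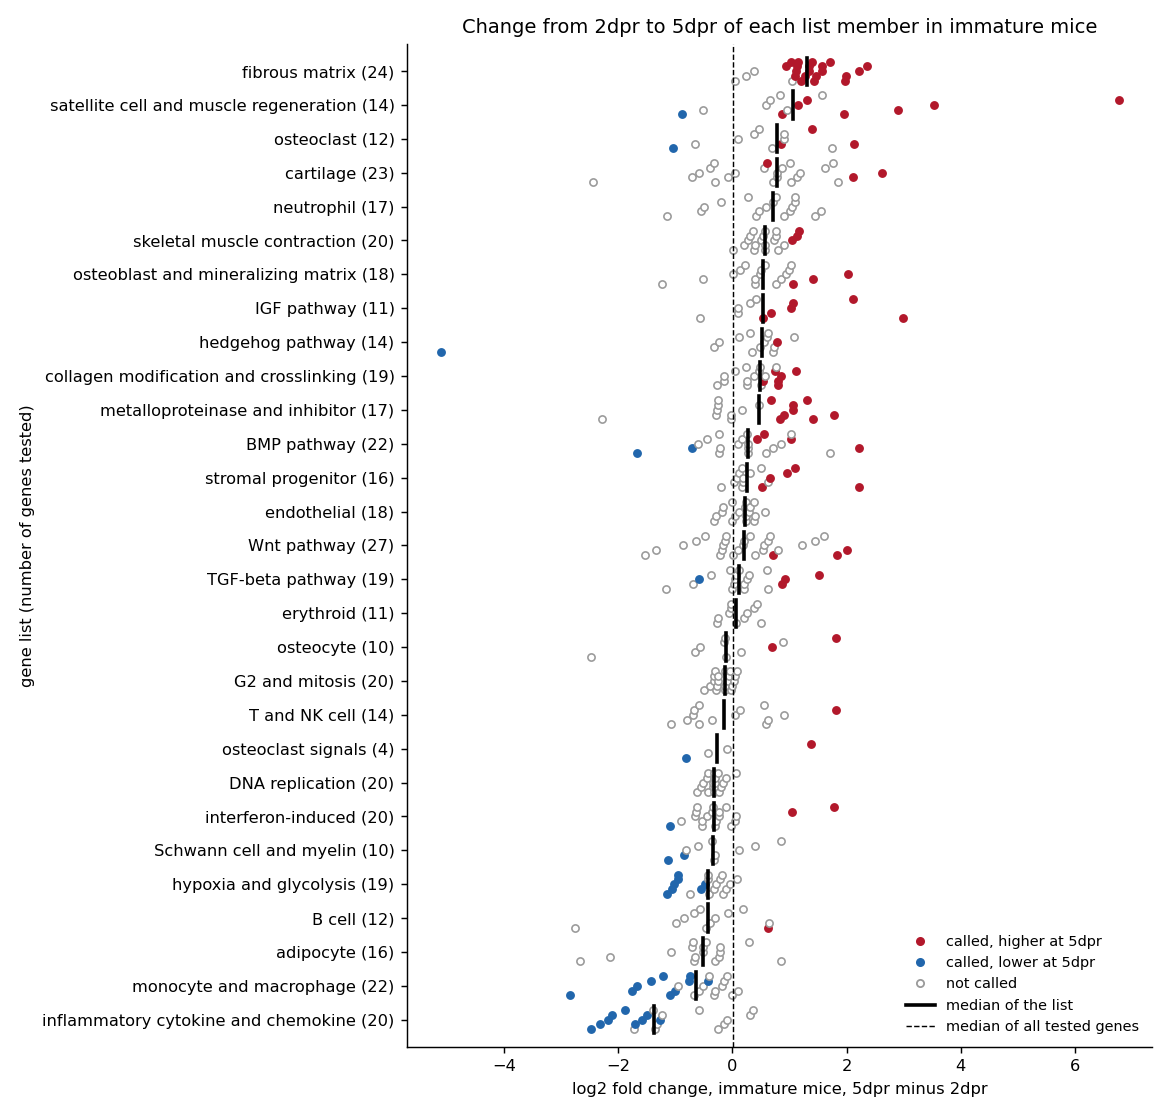
Log2 fold change from 2dpr to 5dpr in immature mice (horizontal axis) of every tested member of 29 gene lists (rows, with the number tested), where filled points passed the adjusted p of 0.05, black bars are list medians and the dashed line is the median of all tested genes. Medians ran from -1.37 for the inflammatory cytokines and chemokines to 1.31 for fibrous matrix.

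Of 22 monocyte and macrophage genes tested 10 fell and 0 rose, with a median log2 fold change of -0.63. Among those that fell, the Fc receptor gene Fcgr1 was 3.39-fold lower at 5dpr and the chemokine receptor gene Ccr2 3.18-fold lower. The complement gene C1qa and the lysozyme gene Lyz2 were among the 12 that did not pass the test. Ccr2 (ENSMUSG00000049103, chromosome 9 from 124101950 to 124113557), the receptor that draws monocytes out of the marrow, was at 361, 574, 557 and 347 CPM at 2dpr and 139, 153, 133 and 154 CPM at 5dpr. The 2dpr values were spread more widely than the 5dpr values and the stages did not overlap (log2 fold change -1.67, SE 0.265, adjusted p = 6.13e-05). Fcgr1, a receptor for the tail of IgG, was at 164, 263, 264 and 223 CPM at 2dpr and 64.4, 77.8, 73.6 and 54.1 CPM at 5dpr, and also fell without overlap (log2 fold change -1.76, adjusted p = 1.82e-05). Msr1, a scavenger receptor, fell by 1.43 log2 units, Itgam, an integrin chain of myeloid cells, by 1.22 and Cd68, a lysosomal glycoprotein, by 1.01, each with 4 of 4 libraries lower than any at 2dpr. Cd14 (-1.1), Trem2 (-0.76), the mannose receptor Mrc1 (-0.75) and the growth factor receptor Csf1r (-0.42) fell as well. Mrc1 and Csf1r overlapped between the stages. The list counted 6 falls without 5dpr replicate 4, 6 without 5dpr replicate 5 and 6 with a muscle score as a covariate. With that score the adjusted p was 0.0579 for Cd14, 0.0885 for Trem2, 0.188 for Mrc1 and 0.124 for Csf1r, and for Csf1r it was 0.0503 with RLE scaling and 0.0845 without a filter. The adjusted p of Cd14 was 0.0713 without 5dpr replicate 4 and 0.0509 without 5dpr replicate 5, and that of Trem2 was 0.0864 without 2dpr replicate 1, 0.0869 without 5dpr replicate 4 and 0.0644 without 5dpr replicate 5. For Mrc1 the adjusted p was 0.051 to 0.252 without, in turn, 2dpr replicates 1, 2 and 3 and 5dpr replicates 2, 4 and 5, and for Csf1r it was 0.082 to 0.146 without, in turn, 2dpr replicates 2 and 3 and 5dpr replicates 2, 4 and 5. C1qa was at 484, 544, 436 and 421 CPM at 2dpr and 379, 517, 479 and 399 CPM at 5dpr, with overlapping stages (log2 fold change -0.09, adjusted p = 0.894). Adgre1, the F4/80 antigen, was lower in each 5dpr library than at 2dpr without passing the test (log2 fold change -0.66, adjusted p = 0.059). The summed level of the list was 14720, 13120, 12760 and 13630 CPM at 2dpr and 12170, 12440, 9018 and 9576 CPM at 5dpr, without overlap, and per kilobase of exon Lyz2 was its most abundant member. In whole tissue, fewer cells of a type and less RNA per cell cannot be told apart. In each list described here, 0 tested members lacked reads in all 8 libraries.

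Acod1 and F10, myeloid genes, were among the 12 largest falls of called genes with a mean of at least 1 CPM and no overlap. Acod1, which makes the antimicrobial metabolite itaconate in activated macrophages, was at 31.6, 50.5, 149 and 68.5 CPM at 2dpr and 14.1, 18.5, 5.78 and 10.5 CPM at 5dpr. F10, which encodes coagulation factor X, was at 75.4, 61.8, 175 and 81.4 CPM at 2dpr and 17, 21.7, 11.8 and 20.8 CPM at 5dpr. Both had their highest value in 2dpr replicate 3, and the log2 fold change was -2.65 for Acod1 (adjusted p = 0.000283) and -2.48 for F10 (adjusted p = 0.000505).

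Chemokines and cytokines made up the list with the lowest median, -1.37. Of its 20 tested members 9 fell and 0 rose. Ligands that attract monocytes fell 4.5-fold to 4.96-fold for Ccl7 and Ccl2, and Cxcl2 and Cxcl3, which attract neutrophils, fell as well. Ccl2 (ENSMUSG00000035385, chromosome 11 from 82035571 to 82037453), the main ligand of Ccr2, was at 230, 303, 375 and 324 CPM at 2dpr and 64.2, 83.4, 51.7 and 49.7 CPM at 5dpr. The lowest 2dpr library was more than 2 times as high as the highest 5dpr library (log2 fold change -2.31, SE 0.299, adjusted p = 2.42e-06). Ccl7, a further ligand of the same receptor, was at 156, 238, 227 and 237 CPM at 2dpr and 48.9, 64.7, 39.9 and 37.6 CPM at 5dpr (log2 fold change -2.17, adjusted p = 3.68e-05). Cxcl2 (ENSMUSG00000058427, chromosome 5 from 90903871 to 90905938), a neutrophil attractant, was at 38.4, 44.9, 88.4 and 44.5 CPM at 2dpr and 12.1, 15.3, 5.04 and 7.81 CPM at 5dpr. The 2dpr libraries were all higher than the 5dpr libraries, with 2dpr replicate 3 far above the others (log2 fold change -2.47, SE 0.528, adjusted p = 0.00207). Its neighbor Cxcl3 was at 15, 18.1, 18.2 and 10.9 CPM at 2dpr and 6.98, 5.76, 1.96 and 5.04 CPM at 5dpr, again without overlap (log2 fold change -1.71, adjusted p = 0.00367). Ccl3 (-1.87), Ccl4 (-2.1) and Ccl12 (-1.59), further chemokines of myeloid cells, fell in log2 units by similar amounts. With a muscle score as a covariate the adjusted p was 0.0634 for Ccl12 and 0.152 for Tnf. Tnf, the cytokine that opens inflammatory cascades, was at 16, 18, 31 and 23.9 CPM at 2dpr and 13.2, 10.3, 5.04 and 8.94 CPM at 5dpr (log2 fold change -1.27, adjusted p = 0.03). Il1rn, the natural antagonist of the interleukin 1 receptor, was at 159, 102, 285 and 258 CPM at 2dpr and 95.3, 107, 26.3 and 59.8 CPM at 5dpr, so that 5dpr replicate 3 was above 2dpr replicate 2 (log2 fold change -1.49, adjusted p = 0.0102). On leaving out libraries, the adjusted p of Tnf was 0.0524 to 0.138 without, in turn, 2dpr replicates 3 and 4 and 5dpr replicates 3, 4 and 5, and that of Il1rn was 0.0562 without 2dpr replicate 3 and 0.0586 without 5dpr replicate 4. Il1b, the interleukin 1 beta gene, was at 57.4, 69.2, 116 and 74.6 CPM at 2dpr and 41.4, 52.1, 12.6 and 31 CPM at 5dpr, and did not pass the test although the stages did not overlap (log2 fold change -1.23, adjusted p = 0.0563). Il6 was low at both stages, at 2.72, 3.15, 3.52 and 3.95 CPM at 2dpr and 2.06, 4.76, 2.33 and 3.39 CPM at 5dpr (adjusted p = 0.969). The summed level of the list was 797, 978, 1406 and 1165 CPM at 2dpr and 382, 462, 227 and 295 CPM at 5dpr, and Ccl7 was the most abundant member per kilobase.

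The promoters of Cxcl2, Cxcl3 and Cxcl1 are shown because the first pair fell together while their neighbor on chromosome 5 did not pass the test. Cxcl1 was at 7.22, 5.4, 8.12 and 9.06 CPM at 2dpr and 3.17, 12.4, 4.2 and 5.56 CPM at 5dpr, with 5dpr replicate 3 the highest of all 8 libraries (log2 fold change -0.24, adjusted p = 0.902). RefSeq promoter sequences of build GRCm38.p6, from 250 bases before to 50 after each gene start, were matched by symbol for 13 of the 20 genes, with 16 promoters. The kappaB motif, to which NF-kappaB proteins bind, was searched on both strands and was found in 5 of these 16 promoters (31.2%), against 8.46% of 32851 promoters of that length. The genes were Cxcl1, Cxcl2, Cxcl3, Il6 and Lif, and 2 of the 6 called genes with a promoter held the motif. The windows are chr5:90903649-90903948 for Cxcl2, chr5:90785851-90786150 for Cxcl3 and chr5:90890995-90891294 for Cxcl1, each on the plus strand and written 5′ to 3′. Capitals mark the motif, the only one searched in this list, which matches on both strands within the same 11 bases. It lies 97 to 87 bases before the start in Cxcl2, 73 to 63 in Cxcl3 and 71 to 61 in Cxcl1.
Cxcl2: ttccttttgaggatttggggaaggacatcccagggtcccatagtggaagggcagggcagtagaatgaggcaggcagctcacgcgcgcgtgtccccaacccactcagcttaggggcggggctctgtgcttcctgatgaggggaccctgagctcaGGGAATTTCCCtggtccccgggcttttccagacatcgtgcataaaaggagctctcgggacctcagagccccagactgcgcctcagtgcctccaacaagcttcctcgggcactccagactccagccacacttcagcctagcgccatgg
Cxcl3: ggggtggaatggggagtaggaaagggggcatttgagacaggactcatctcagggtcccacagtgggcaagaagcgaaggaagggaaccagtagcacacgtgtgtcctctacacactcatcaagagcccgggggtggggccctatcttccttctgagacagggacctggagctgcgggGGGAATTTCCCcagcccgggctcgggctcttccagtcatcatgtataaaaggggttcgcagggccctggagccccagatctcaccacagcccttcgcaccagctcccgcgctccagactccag
Cxcl1: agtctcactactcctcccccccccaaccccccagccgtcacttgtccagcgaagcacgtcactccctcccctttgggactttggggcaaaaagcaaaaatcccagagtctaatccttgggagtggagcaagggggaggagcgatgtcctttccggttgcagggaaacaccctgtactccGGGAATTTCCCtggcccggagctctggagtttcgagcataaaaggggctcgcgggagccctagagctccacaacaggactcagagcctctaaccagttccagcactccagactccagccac
The same 11 letters stand in capitals in all 3 promoters, 1 of which belongs to a gene that did not pass the test. A match describes the sequence and says nothing on binding in the callus.

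Neutrophil genes gave no called member, in either direction, while the summed level of their list was highest in 5dpr replicate 5. Of 17 tested members edgeR called 0, of which 4 had an unadjusted p under 0.05, and DESeq2 called 1 higher and 1 lower, with a median log2 fold change of 0.72. The median was 0.35 without 5dpr replicate 5 and 0.293 with replicate number as a block, and with the muscle score 1 member was called higher. With only the 8 libraries in the fit 1 was called higher and 1 lower. S100a9, a calcium-binding protein that fills the neutrophil cytosol, was at 582, 450, 566 and 1109 CPM at 2dpr and 930, 858, 1343 and 1947 CPM at 5dpr. Its 5dpr libraries lay higher on average but overlapped 2dpr replicate 4 (log2 fold change 0.91, adjusted p = 0.337), and S100a8, its partner subunit, had a log2 fold change of 0.77 (adjusted p = 0.456). Cxcr2, the receptor for Cxcl2, was at 16.3, 42.3, 36.8 and 24 CPM at 2dpr and 22.1, 18.7, 22.3 and 41 CPM at 5dpr (adjusted p = 0.874), and Retnlg had an adjusted p of 0.747. Summed over the list, neutrophil genes were at 2151, 1675, 2050 and 4030 CPM at 2dpr and 3008, 3214, 4478 and 7529 CPM at 5dpr. S100a9 was the most abundant per kilobase.

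Of 14 T and NK cell genes 1 rose and 0 fell (median -0.15), near the share of all tested genes called (8.05%). The median was 0.485 without 2dpr replicate 1, -0.27 with the muscle score and -0.43 to -0.24 without, in turn, 2dpr replicates 2, 3 and 4 and 5dpr replicate 4. With replicate number as a block, it was 0.193. Cd4, a coreceptor of helper T cells that mouse myeloid cells can also carry, was at 8.79, 1.58, 1.51 and 3.37 CPM at 2dpr and 14.6, 12.8, 15.7 and 10.6 CPM at 5dpr, higher at 5dpr without overlap (log2 fold change 1.82, adjusted p = 0.00245). Without 2dpr replicate 1, its log2 fold change was 2.66. Cd3e, a chain of the T cell receptor complex, was at 3.98, 0.225, 0.0838 and 0.465 CPM at 2dpr and 0.476, 0.501, 0.793 and 1.04 CPM at 5dpr (adjusted p = 0.702), and Cd8a, the coreceptor of cytotoxic T cells, was highest in 2dpr replicate 1 (adjusted p = 0.542). The list's summed level was 76.5, 16.7, 21.2 and 26.7 CPM at 2dpr and 34.6, 37.3, 54.4 and 34.8 CPM at 5dpr, and per kilobase Trbc2 was its most abundant member. Of 12 B cell genes 1 rose and 0 fell (median -0.43), also near that share of 8.05%. That gene was Ebf1, a transcription factor that stromal cells and adipocytes express as well, at 47.9, 52.9, 57.5 and 48.2 CPM at 2dpr and 76.3, 67.6, 99.8 and 74 CPM at 5dpr (log2 fold change 0.62, adjusted p = 0.00922). Its adjusted p was 0.0736 without 5dpr replicate 4, and the list median was then -0.18. That median was -0.28 without 2dpr replicate 1, -0.69 without 5dpr replicate 5 and -0.17 with the muscle score. With replicate number as a block it was -0.705, and DESeq2 called 1 B cell gene higher and 1 lower. Cd79a, part of the B cell receptor complex, had an adjusted p of 0.758. B cell genes summed to 207, 131, 158 and 172 CPM at 2dpr and 159, 181, 186 and 209 CPM at 5dpr, with Ighm the most abundant per kilobase, where copies of immunoglobulin genes may share reads. Of 11 red cell genes tested, out of 12 listed, edgeR called 0, with 0 at an unadjusted p under 0.05, and DESeq2 called 0 (median 0.06, and -0.15 to 0.41 without, in turn, 2dpr replicates 1, 2 and 4 and 5dpr replicates 3, 4 and 5). Hbb-bs, a beta globin, was at 1566, 1164, 1844 and 2403 CPM at 2dpr and 1186, 1321, 1765 and 1569 CPM at 5dpr (adjusted p = 0.821), which is uncertain between the globin copies, as is Hba-a1 (adjusted p = 0.821). Alas2, which starts heme synthesis in red cell precursors, had an adjusted p of 0.993. The list summed to 3212, 2122, 3396 and 4379 CPM at 2dpr and 2307, 2766, 3128 and 3473 CPM at 5dpr, and Hbb-bs was the most abundant per kilobase.

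Of 20 interferon-induced genes tested 2 rose and 1 fell, with a median of -0.32. Without 2dpr replicate 1, 0 rose and 3 fell (median -0.6), and without 5dpr replicate 4 the list had 0 calls. It had 2 rises and 0 falls without 2dpr replicate 2 or 5dpr replicate 2, and 1 rise and 0 falls without, in turn, 2dpr replicates 3 and 4 and 5dpr replicates 3 and 5 (median -0.135 without 2dpr replicate 3). Ifit1, an antiviral protein that binds foreign RNA, was at 17.5, 84.1, 93.6 and 74.2 CPM at 2dpr and 49.2, 71.1, 65.2 and 44.7 CPM at 5dpr, and 2dpr replicate 1 was far below the 7 other libraries (adjusted p = 0.809). Isg15 (adjusted p = 0.718) and Rsad2 (adjusted p = 0.355) were lowest in that library too. Cxcl9, a T cell attractant induced by interferon gamma, was at 0.837, 5.97, 11.2 and 5.11 CPM at 2dpr and 15.2, 19.2, 24.4 and 21 CPM at 5dpr, with every 5dpr library above every 2dpr library (log2 fold change 1.78, adjusted p = 0.017). On leaving out libraries, it had an adjusted p of 0.0598 without 2dpr replicate 1 and 0.055 without 5dpr replicate 4. The other called genes, Ifi44 (1.04, adjusted p = 0.0483) and the antiviral GTPase Mx1 (-1.1, adjusted p = 0.0435), were named after their values were seen. For Ifi44 the adjusted p was 0.0526 to 0.177 without, in turn, 2dpr replicates 1, 3 and 4 and 5dpr replicates 3, 4 and 5, and for Mx1 it was 0.0654 to 0.237 without, in turn, 2dpr replicates 2, 3 and 4 and 5dpr replicates 2, 3, 4 and 5. With only the 8 libraries in the fit it was 0.0796 for Ifi44 and 0.0849 for Mx1, with the muscle score 0.122 for Mx1, and without a filter 0.0512 for Ifi44. The summed level of the list was 539, 1585, 1826 and 1516 CPM at 2dpr and 875, 1224, 1186 and 969 CPM at 5dpr, and Isg15 was the most abundant member per kilobase.

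Of 24 fibrous matrix genes tested 20 rose and 0 fell, and the median log2 fold change was 1.31. Postn rose 5.1-fold and Col3a1 2.23-fold. Postn (ENSMUSG00000027750, chromosome 3 from 54361109 to 54391037), periostin, a matrix protein of the periosteum that helps collagen fibrils form, was at 1250, 1299, 1245 and 1778 CPM at 2dpr and 7247, 7568, 8592 and 5021 CPM at 5dpr. The lowest 5dpr value, in replicate 5, was more than 2 times the highest 2dpr value (log2 fold change 2.35, SE 0.366, adjusted p = 4.70e-05). Col3a1 (ENSMUSG00000026043, chromosome 1 from 45311538 to 45349706), the collagen of loose early repair tissue, was at 8075, 8155, 9207 and 7970 CPM at 2dpr and 15830, 21330, 21720 and 15470 CPM at 5dpr. The stages did not overlap, and 5dpr replicates 3 and 4 were the highest (log2 fold change 1.15, SE 0.215, adjusted p = 0.000493). Col1a2, a chain of type I collagen, was at 5591, 4570, 5106 and 7522 CPM at 2dpr and 7999, 13330, 13740 and 13560 CPM at 5dpr, lowest at 5dpr in replicate 2 (log2 fold change 1.09, adjusted p = 0.0186). The adjusted p of Col1a2 was 0.075 without 2dpr replicate 2, 0.0652 without 2dpr replicate 3 and 0.0585 without 5dpr replicate 4. Col1a1, the other chain of type I collagen, was at 5806, 4688, 5110 and 7901 CPM at 2dpr and 6341, 12430, 13700 and 16150 CPM at 5dpr, so that 5dpr replicate 2 fell within the range at 2dpr. It did not pass the test (log2 fold change 1.05, SE 0.394, adjusted p = 0.102). Other called members included Aspn (2.21) and Ogn (1.71), small leucine-rich proteoglycans, Col12a1 (1.98), which sits on the surface of collagen fibrils, and the type VI collagen chain Col6a1 (1.58). Fn1, fibronectin of the provisional matrix, was at 2700, 2815, 3600 and 3489 CPM at 2dpr and 3188, 4183, 4020 and 3409 CPM at 5dpr, with overlapping stages (adjusted p = 0.788). Fbn1 (0.38) and Vcan (0.04) did not pass the test either. Together, its members summed to 33760, 32750, 35320 and 41630 CPM at 2dpr and 64220, 88160, 95320 and 77500 CPM at 5dpr, and every 5dpr library lay far above the 2dpr libraries. Per kilobase, Col1a1 was its most abundant gene.

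Among enzymes that process and crosslink collagen, 6 of 19 tested members rose and 0 fell, with a median of 0.49, and DESeq2 and edgeR with only the 8 libraries in the fit each called 10 higher. P4ha3, a prolyl hydroxylase that stabilizes the collagen helix, was at 17.4, 17.5, 13.9 and 16.7 CPM at 2dpr and 32.5, 39.8, 39.8 and 30.3 CPM at 5dpr (log2 fold change 1.12, adjusted p = 0.00338). All 5dpr values exceeded all 2dpr values. Pcolce (0.8), Bmp1 (0.74) and Adamts2 (0.81), which together trim the ends of procollagen, also rose in log2 units. Lox, the founding lysyl oxidase, was at 309, 460, 437 and 383 CPM at 2dpr and 434, 509, 557 and 410 CPM at 5dpr (adjusted p = 0.428), and Plod2, a lysyl hydroxylase, had a log2 fold change of 0.76 (adjusted p = 0.051), without overlap between the stages. Summed over the list, the level was 3444, 3611, 3615 and 3494 CPM at 2dpr and 4098, 5025, 5941 and 4396 CPM at 5dpr, with Serpinh1, the collagen chaperone, the most abundant per kilobase.

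Metalloproteinases and their inhibitors counted 8 rises and 0 falls among 17 tested members (median 0.47), and 7 rises and 1 fall without 2dpr replicate 1. Mmp2 (ENSMUSG00000031740, chromosome 8 from 92827291 to 92853420), gelatinase A, was at 200, 165, 185 and 197 CPM at 2dpr and 596, 737, 694 and 553 CPM at 5dpr. The stages were 3.45-fold apart with narrow spread in each (log2 fold change 1.79, SE 0.173, adjusted p = 1.07e-08). Mmp14, its activator at the cell surface, rose by 1.06 log2 units, and Timp2, which takes part in that activation, by 0.91. Mmp13, the collagenase of cartilage and bone, was at 92.3, 66.9, 130 and 178 CPM at 2dpr and 113, 156, 108 and 145 CPM at 5dpr (adjusted p = 0.877), and Mmp3 (-0.25, adjusted p = 0.82) and Timp1 (-0.03, adjusted p = 0.975) did not pass the test. Summed, these genes reached 1634, 1633, 1862 and 1921 CPM at 2dpr and 2892, 3212, 2734 and 2506 CPM at 5dpr, and Timp1 was the most abundant member per kilobase.

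Among the genes with the largest rises, C1qtnf3 had the smallest p-value of the comparison. C1qtnf3 (ENSMUSG00000058914, chromosome 15 from 10952332 to 10980150), a secreted protein of growing cartilage and tendon, was at 43.4, 49.4, 45.3 and 60.2 CPM at 2dpr and 988, 987, 1065 and 723 CPM at 5dpr. Every 5dpr library held more than 10 times as much as any 2dpr library, and replicate 5 was the lowest at 5dpr (log2 fold change 4.25, SE 0.326, adjusted p = 1.28e-10).

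**Figure D2:**
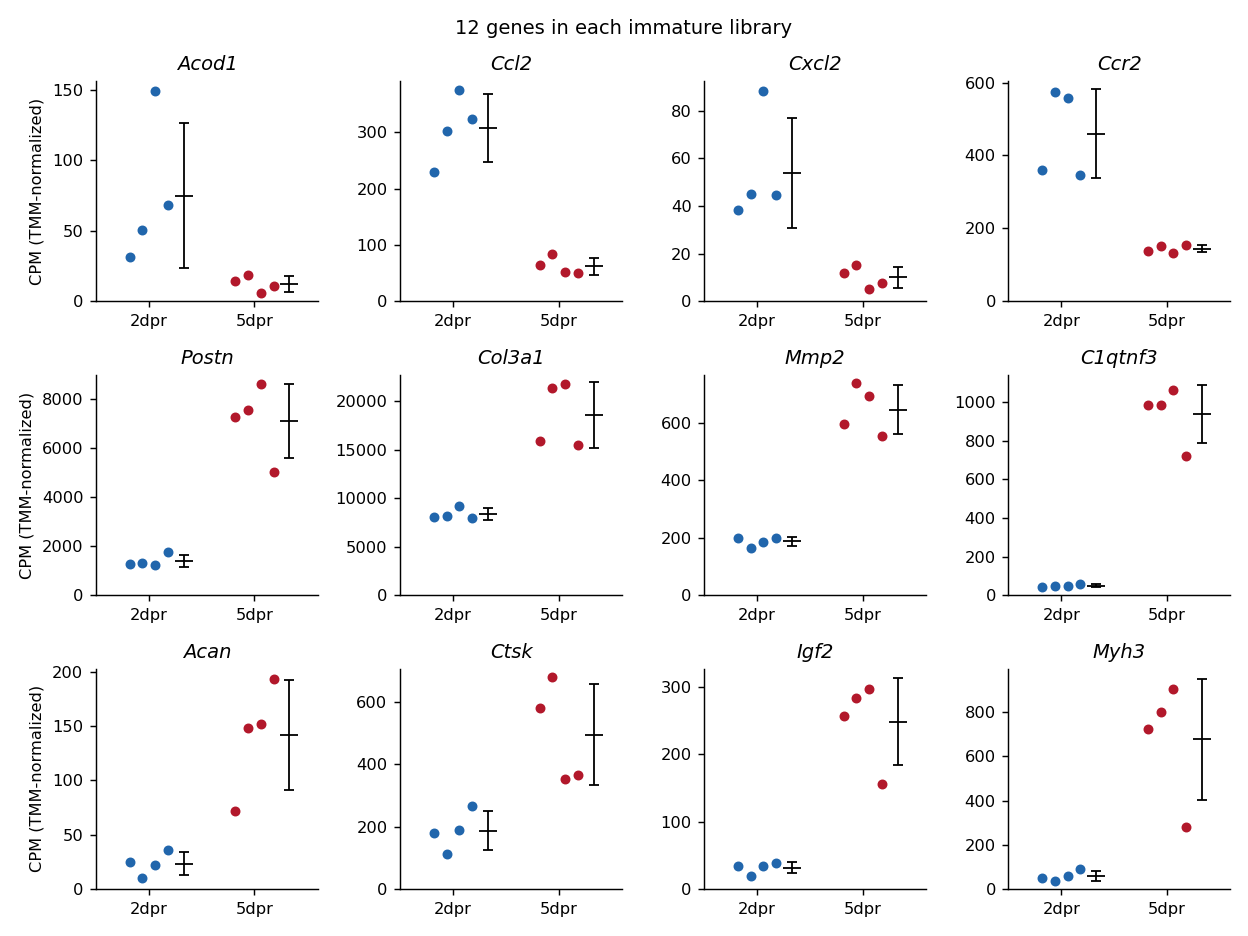
CPM (vertical axes, from 0) of 12 genes in each immature library, with 2dpr in blue (replicates 1 to 4) and 5dpr in red (replicates 2 to 5), and the mean and SD of n = 4 in black. In each of these genes the stages do not overlap, and Postn, C1qtnf3, Igf2 and Myh3 are lowest at 5dpr in replicate 5.

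Stromal progenitor genes rose in 5 of 16 tested members, with 0 falls and a median of 0.26. The transcription factor Prrx1, which marks limb and periosteal mesenchyme, was at 96.8, 125, 106 and 119 CPM at 2dpr and 99.6, 123, 146 and 133 CPM at 5dpr, with overlapping stages (log2 fold change 0.17, adjusted p = 0.576). Pdgfra (0.03, adjusted p = 0.941) and Cxcl12 (0.32, adjusted p = 0.444) did not pass the test either. Acta2, the smooth muscle actin of myofibroblasts and pericytes, was at 233, 220, 204 and 306 CPM at 2dpr and 522, 468, 529 and 342 CPM at 5dpr, higher at 5dpr without overlap (log2 fold change 0.95, adjusted p = 0.0152). Grem1, a secreted antagonist of BMP, was at 1.36, 0.675, 1.34 and 3.95 CPM at 2dpr and 7.77, 7.51, 10.2 and 7.9 CPM at 5dpr (log2 fold change 2.21, SE 0.57, adjusted p = 0.011). Its highest 2dpr value, in replicate 4, lay below its lowest 5dpr value, and without that replicate the log2 fold change was 2.87. The remaining calls, which were singled out once values had been seen, were Pdgfrb (0.52), Cd34 (0.65) and Twist1 (1.1). Twist1 was at 9, 11.6, 7.54 and 7.55 CPM at 2dpr and 42.4, 10, 12.8 and 12.2 CPM at 5dpr, so that its rise rested on 5dpr replicate 2. Without that library, its log2 fold change was 0.39 and its adjusted p 0.558. The list counted 2 rises without 2dpr replicate 2, 1 without 2dpr replicate 3 and 3 without 5dpr replicate 4. With the muscle score it counted 3 (median 0.44), and the adjusted p was 0.0746 for Acta2 and 0.0776 for Twist1. On leaving out libraries, the adjusted p of Acta2 was 0.0527 without 2dpr replicate 2, 0.0639 without 2dpr replicate 3 and 0.0542 without 5dpr replicate 4, that of Grem1 was 0.0548 without 2dpr replicate 2 and 0.05 without 2dpr replicate 3, and that of Pdgfrb was 0.0716 without 2dpr replicate 2, 0.064 without 2dpr replicate 3 and 0.11 without 5dpr replicate 4. For Twist1 it was also above the threshold without 2dpr replicates 1, 3 and 4 (0.0755, 0.120 and 0.105), and with only the 8 libraries in the fit (0.101). The summed level of the list was 1535, 1637, 1732 and 1611 CPM at 2dpr and 2115, 2193, 2427 and 1864 CPM at 5dpr, and per kilobase the stem cell antigen gene Ly6a was the most abundant.

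Among cartilage genes, aggrecan and a fibril collagen of cartilage rose, while the type II collagen gene and the master regulator Sox9 did not pass the test. Of 23 tested members, out of 25 listed, 3 rose and 0 fell, with a median of 0.78, and 5 were called higher with only the 8 libraries in the fit. Acan (ENSMUSG00000030607, chromosome 7 from 79053483 to 79115099), which encodes the large proteoglycan of cartilage, was at 24.4, 9.79, 22.3 and 35.8 CPM at 2dpr and 72, 148, 152 and 194 CPM at 5dpr. The 5dpr libraries were all above the 2dpr libraries, with replicate 2 the lowest of them (log2 fold change 2.62, SE 0.657, adjusted p = 0.00867). Col11a1, a minor fibril collagen of cartilage and of young stroma, was at 95.3, 56.2, 84.9 and 195 CPM at 2dpr and 307, 500, 483 and 572 CPM at 5dpr (log2 fold change 2.11, adjusted p = 0.00311), again without overlap. Sox6, a partner of Sox9 that fibers of muscle express too, was at 29.5, 23.4, 28.3 and 33.6 CPM at 2dpr and 48.7, 38.1, 39.3 and 49.2 CPM at 5dpr (log2 fold change 0.61, adjusted p = 0.0446) and was named after its values were seen. Its adjusted p was 0.0598 to 0.16 without, in turn, 2dpr replicates 1, 2 and 3 and 5dpr replicates 2, 4 and 5, 0.293 with the muscle score and 0.0523 without a filter. Col2a1, the main collagen of cartilage, was at 81.2, 8.67, 29.7 and 6.16 CPM at 2dpr and 15.9, 17.7, 129 and 223 CPM at 5dpr. It varied more between libraries of a stage than between the stages, with 5dpr replicates 4 and 5 and 2dpr replicate 1 high (log2 fold change 1.62, SE 1.09, adjusted p = 0.459). Sox9 was at 4.92, 6.87, 5.11 and 5.92 CPM at 2dpr and 6.98, 8.64, 8.91 and 9.03 CPM at 5dpr, higher in each 5dpr library by a narrow margin (log2 fold change 0.56, adjusted p = 0.58). Col10a1, the collagen of hypertrophic chondrocytes, was high in 2dpr replicates 1 and 3 at 50.3, 3.26, 39.3 and 7.09 CPM at 2dpr and 1.11, 0.501, 8.68 and 6.42 CPM at 5dpr (adjusted p = 0.126). In sum, the members were at 475, 173, 308 and 432 CPM at 2dpr and 576, 902, 1087 and 1442 CPM at 5dpr, and Col11a1 was the most abundant member per kilobase. The hedgehog pathway paces cartilage growth. Of its 14 tested members 1 rose and 1 fell (median 0.52), against 8.05% of all tested genes called. Without 2dpr replicate 1, 3 rose and 0 fell, and without 5dpr replicate 4 (median 0.34) or 5dpr replicate 5 the list had 0 calls. Boc, a coreceptor of hedgehog ligands, was at 28.5, 18.4, 19.4 and 21.7 CPM at 2dpr and 25.7, 40.2, 38.4 and 46.4 CPM at 5dpr, with overlap of 2dpr replicate 1 and 5dpr replicate 2 (log2 fold change 0.78, adjusted p = 0.0411). On leaving out libraries, it had an adjusted p of 0.086 to 0.134 without, in turn, 2dpr replicates 2, 3 and 4 and 5dpr replicates 3, 4 and 5. The member that fell was the ligand gene Shh, which was under 1 CPM in every library, and its adjusted p was 0.0234. It was 0.0605 without 2dpr replicate 1, 0.0913 without 5dpr replicate 4 and 0.0549 without 5dpr replicate 5, and 0.0639 with the muscle score. DESeq2 gave Shh no adjusted p, and filterByExpr removed it. Targets of the pathway did not pass the test, with Ptch1 at 0.12 (adjusted p = 0.837), Gli1 at 1.08 (adjusted p = 0.185) and Hhip at 0.48 (adjusted p = 0.702) in log2 fold change.

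Osteoblast genes gave 3 rises and 0 falls among 18 tested members (median 0.54). Ibsp, the bone sialoprotein gene, was at 88.7, 64.1, 117 and 141 CPM at 2dpr and 171, 209, 447 and 267 CPM at 5dpr, highest in 5dpr replicate 4 and without overlap (log2 fold change 1.41, SE 0.416, adjusted p = 0.0285). Its adjusted p was 0.0583 to 0.162 without, in turn, 2dpr replicates 1, 2 and 3 and 5dpr replicate 4. Tnn, a tenascin of the periosteum, was at 109, 81.9, 128 and 242 CPM at 2dpr and 470, 581, 691 and 545 CPM at 5dpr, also without overlap (log2 fold change 2.03, adjusted p = 0.00236). Sparc, which encodes the collagen-binding protein osteonectin and was named after its values were seen, rose by 1.06 log2 units (adjusted p = 0.000638). Runx2, the regulator that starts the osteoblast program, was at 19.5, 19.9, 23.1 and 24 CPM at 2dpr and 16.5, 29.2, 23 and 44.7 CPM at 5dpr, with overlapping stages (adjusted p = 0.639). Sp7, which acts after it, was at 7.54, 3.72, 7.37 and 16.8 CPM at 2dpr and 6.98, 14.8, 16 and 21.9 CPM at 5dpr (log2 fold change 0.77, adjusted p = 0.428). Alpl, the phosphatase of mineralizing cells, had a log2 fold change of 1.03 (adjusted p = 0.0709). This list had 5 rises and a median of 1.07 without 2dpr replicate 4, 5 rises and 1 fall without 5dpr replicate 2, and 2 rises and 1 fall without 2dpr replicate 2. Its median was 0.826 with the muscle score, and DESeq2 called 5 higher and 1 lower. Spp1, osteopontin, which macrophages make as well, was the most abundant member per kilobase, and the list summed to 9636, 5806, 8816 and 11870 CPM at 2dpr and 9557, 10110, 8279 and 7983 CPM at 5dpr. Of 10 osteocyte genes 2 rose and 0 fell (median -0.12, and -0.25 to 0.1 without, in turn, 2dpr replicates 1, 3 and 4 and 5dpr replicates 2 to 5). They were Irx5, a homeobox gene at 0.314, 1.01, 0.754 and 0.929 CPM at 2dpr and 5.39, 1.25, 1.35 and 2.95 CPM at 5dpr (log2 fold change 1.82, adjusted p = 0.0281), and Ank, a pyrophosphate transporter gene named after its values were seen (log2 fold change 0.69, adjusted p = 0.00969). The adjusted p of Irx5 was 0.0601 to 0.176 without, in turn, 2dpr replicates 1 and 3 and 5dpr replicates 2 and 5, and the list then counted 1 rise. With the muscle score the adjusted p of Irx5 was 0.119 and the list median 0.12. Dmp1 (adjusted p = 0.948) and Sost (adjusted p = 0.953), which define the osteocyte, did not pass the test. Osteocyte genes summed to 280, 333, 329 and 318 CPM at 2dpr and 318, 350, 231 and 287 CPM at 5dpr, with Pdpn the most abundant per kilobase.

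Of 12 osteoclast genes tested 3 rose and 1 fell, with a median of 0.78 (0.435 without 5dpr replicate 3). DESeq2 called 5 higher and 1 lower, and edgeR with only the 8 libraries 5 higher and 2 lower. Ctsk (ENSMUSG00000028111, chromosome 3 from 95499256 to 95509362), cathepsin K, which degrades bone collagen, was at 180, 111, 190 and 266 CPM at 2dpr and 581, 678, 353 and 364 CPM at 5dpr. The 5dpr values were 2.64-fold higher by the fit, with replicates 2 and 3 above replicates 4 and 5 (log2 fold change 1.4, SE 0.342, adjusted p = 0.00685). Oscar, a costimulatory receptor of osteoclast precursors, was at 0.523, 1.01, 1.01 and 1.51 CPM at 2dpr and 6.35, 4.26, 2.66 and 4.77 CPM at 5dpr, low at both stages but without overlap (log2 fold change 2.13, adjusted p = 0.0028). Itgb3, a chain of the osteoclast integrin, had a log2 fold change of 0.86 (adjusted p = 0.0236), and its adjusted p was 0.0596 to 0.0861 without, in turn, 2dpr replicates 1, 2 and 3 and 5dpr replicates 3 and 5. Tnfrsf11a, which encodes the receptor RANK, was at 56.7, 73.4, 73 and 65.9 CPM at 2dpr and 30.9, 37.3, 35.1 and 27.3 CPM at 5dpr, and so fell without overlap (log2 fold change -1.04, adjusted p = 0.000437). Itgb3 and Tnfrsf11a were named after their values were seen. Acp5, the acid phosphatase of osteoclasts, was at 155, 85.6, 141 and 196 CPM at 2dpr and 232, 387, 209 and 255 CPM at 5dpr, without overlap or call (adjusted p = 0.0763), and the calcitonin receptor gene Calcr had a log2 fold change of 1.75 (adjusted p = 0.0518). The list summed to 852, 613, 878 and 1093 CPM at 2dpr and 1360, 1717, 951 and 1150 CPM at 5dpr, and Ctsk was its most abundant member per kilobase. Among 4 signals to osteoclasts, 1 rose and 1 fell (median -0.26). Tnfsf11, the ligand RANKL, was at 2.2, 1.13, 2.6 and 3.02 CPM at 2dpr and 8.25, 7.64, 3.17 and 4.77 CPM at 5dpr (log2 fold change 1.38, adjusted p = 0.035). Csf1, the macrophage growth factor, was at 177, 153, 220 and 220 CPM at 2dpr and 136, 129, 72.7 and 102 CPM at 5dpr, lower at 5dpr without overlap (log2 fold change -0.81, adjusted p = 0.0105). Tnfrsf11b, the decoy receptor osteoprotegerin, was at 12.8, 11.9, 8.88 and 15.9 CPM at 2dpr and 10.3, 9.14, 9.24 and 8.16 CPM at 5dpr (adjusted p = 0.416). On leaving out libraries, the adjusted p of Tnfsf11 was 0.0659 to 0.136 without, in turn, 2dpr replicates 1, 2 and 3 and 5dpr replicates 2 and 3, and that of Csf1 was 0.0697 without 5dpr replicate 4 and 0.0757 with the muscle score.

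Among growth factor pathways the IGF list had the highest share of calls, where 6 of 11 tested members rose and 0 fell (median 0.54). Igf2 (ENSMUSG00000048583, chromosome 7 from 142650766 to 142666816), a fetal growth factor, was at 33.5, 19.6, 33.8 and 38.7 CPM at 2dpr and 257, 284, 297 and 156 CPM at 5dpr. Each 5dpr library held more than 4 times the highest 2dpr level (log2 fold change 2.98, SE 0.299, adjusted p = 2.22e-08). H19, the noncoding RNA next to it, was at 674, 574, 691 and 603 CPM at 2dpr and 2728, 2985, 3110 and 2120 CPM at 5dpr (log2 fold change 2.11, adjusted p = 8.27e-08), and was the most abundant member per kilobase. Igf1, the growth factor of adult tissue, was at 116, 96.7, 117 and 133 CPM at 2dpr and 228, 270, 249 and 225 CPM at 5dpr, with narrow ranges that did not overlap (log2 fold change 1.07, adjusted p = 0.000412). The binding protein genes Igfbp4 (1.02), Igfbp5 (0.67) and Igfbp7 (0.54) rose, and the adjusted p of Igfbp7 was 0.0909 without 5dpr replicate 4. IGF genes summed to 2024, 1739, 1929 and 1893 CPM at 2dpr and 4682, 5243, 5429 and 4041 CPM at 5dpr.

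In the TGF-beta list, 3 of 19 tested members rose and 1 fell (median 0.12). The median was 0.06 without 2dpr replicate 1, 0.19 without 2dpr replicate 4, 0.08 without 5dpr replicate 2 and 0.22 with the muscle score, and 3 fell with only the 8 libraries in the fit. Tgfb3, the ligand isoform linked with repair of soft tissue, was at 67.1, 42.9, 41.1 and 71.9 CPM at 2dpr and 158, 168, 180 and 137 CPM at 5dpr (log2 fold change 1.53, SE 0.187, adjusted p = 1.00e-06). The lowest 5dpr library was nearly 2 times the highest 2dpr library. Tgfb1, the isoform of platelets and leukocytes, was at 56.4, 46.2, 52.5 and 48.6 CPM at 2dpr and 23.6, 29.9, 28.3 and 45 CPM at 5dpr, with every 5dpr library lower but no call (log2 fold change -0.68, adjusted p = 0.21). Tgfb2 (0.93) and the latent binding protein gene Ltbp1 (0.87) rose and Tgfbi (-0.58) fell, and these were named after their values were seen. The adjusted p of Tgfb2 was 0.0607 to 0.127 without, in turn, 2dpr replicates 1, 2 and 3 and 5dpr replicate 4, and that of Tgfbi was 0.078 without 2dpr replicate 3. Responses to the pathway such as Ccn2 (0.00, adjusted p = 1), the activin gene Inhba (0.2, adjusted p = 0.852) and the matrix gene Ltbp2 (0.2, adjusted p = 0.785) did not pass the test. Together, its members summed to 2205, 2560, 2745 and 2713 CPM at 2dpr and 2334, 2413, 2403 and 2134 CPM at 5dpr, and Tgfbi was the most abundant per kilobase.

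In the BMP list, 4 of 22 tested members rose and 2 fell (median 0.27, and 0.41 without 2dpr replicate 1). Besides Grem1, the rises were in the ligand gene Bmp5 (1.03, adjusted p = 0.00617), the receptor gene Bmpr1a (0.56, adjusted p = 0.0194) and the signal transducer Smad5 (0.43, adjusted p = 0.00432), and the falls in the ligand gene Bmp7 (-1.66, adjusted p = 0.0293) and the target gene Id2 (-0.71, adjusted p = 0.000497). These 5 were named after their values were seen. Bmp7 was low, at 2.93, 2.25, 1.51 and 1.86 CPM at 2dpr and 0.476, 0.376, 0.606 and 1.13 CPM at 5dpr, without overlap. With libraries left out, it had an adjusted p of 0.0637 to 0.0936 without, in turn, 2dpr replicates 1 and 2 and 5dpr replicates 2, 3 and 4, without a filter it had 0.0523, and the adjusted p of Bmpr1a was 0.0631 without 2dpr replicate 3, 0.0531 without 5dpr replicate 2 and 0.0804 without 5dpr replicate 4, and 0.121 with the muscle score. The ligands Bmp2 (-0.23, adjusted p = 0.734) and Bmp4 (0.17, adjusted p = 0.84) and the target Id1 (0.28, adjusted p = 0.803) did not pass the test. Without 2dpr replicate 3 the list counted 2 rises, and Grem1 then had an adjusted p of 0.05. BMP genes summed to 520, 532, 494 and 550 CPM at 2dpr and 580, 621, 680 and 591 CPM at 5dpr, with Id3 the most abundant per kilobase.

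In the Wnt list, 3 of 27 tested members rose and 0 fell (median 0.21, and 0.14 to 0.37 without, in turn, 2dpr replicates 1, 3 and 4 and 5dpr replicate 4), and DESeq2 called 6 higher and edgeR with only the 8 libraries 7. Dkk3, a secreted relative of the Wnt antagonists, was at 21.5, 18.5, 18 and 32.6 CPM at 2dpr and 87.3, 80.3, 110 and 86.2 CPM at 5dpr, and the stages were far apart (log2 fold change 2.01, SE 0.219, adjusted p = 1.11e-07). The ligand gene Wnt16 (1.83, adjusted p = 0.00281) and the antagonist Sfrp1 (0.71, adjusted p = 0.0373) were named after their values were seen. For Sfrp1 the adjusted p was 0.0693 to 0.136 without, in turn, 2dpr replicates 1, 2 and 3 and 5dpr replicates 3, 4 and 5, and 0.112 with the muscle score. Axin2, a direct target of Wnt signals, was at 7.54, 6.75, 5.28 and 5.34 CPM at 2dpr and 3.97, 4.51, 6.06 and 7.12 CPM at 5dpr, with overlapping stages (adjusted p = 0.8). Sfrp2 (-0.13, adjusted p = 0.902) and Wnt5a (0.39, adjusted p = 0.438) did not pass the test. Summed, these genes reached 556, 478, 463 and 536 CPM at 2dpr and 635, 685, 732 and 678 CPM at 5dpr, and Sfrp2 was its most abundant member per kilobase.

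Genes of newly formed muscle fibers held the largest rise among the 29 lists, in the neonatal myosin gene. Of 14 tested members 7 rose and 1 fell, with a median of 1.06. Myh8 (ENSMUSG00000055775, chromosome 11 from 67277124 to 67308634), the neonatal myosin heavy chain, was at 5.76, 3.49, 9.55 and 8.13 CPM at 2dpr and 803, 839, 1036 and 275 CPM at 5dpr. It was nearly absent at 2dpr, and 5dpr replicate 5 was the lowest at that stage (log2 fold change 6.76, SE 0.612, adjusted p = 2.60e-09). Myh3 (ENSMUSG00000020908, chromosome 11 from 67078300 to 67102291), the embryonic myosin heavy chain, was at 49.8, 37, 59.1 and 87.9 CPM at 2dpr and 722, 802, 903 and 281 CPM at 5dpr, with the same library lowest at 5dpr (log2 fold change 3.53, SE 0.424, adjusted p = 7.33e-07). Myog, the factor that commits myoblasts to differentiate, was at 67.9, 37.9, 42.1 and 55.4 CPM at 2dpr and 108, 126, 146 and 72.7 CPM at 5dpr, above the 2dpr range in all 5dpr libraries (log2 fold change 1.16, adjusted p = 0.0043). With the muscle score as a covariate its adjusted p was 0.0518. Mymk, which fuses myoblasts, rose by 1.95 log2 units, the embryonic light chain gene Myl4 by 2.89, Megf10, a receptor of satellite cells, by 1.32 and the adhesion gene Ncam1 by 0.86. Myod1, the factor of activated myoblasts, was at 42.9, 29.2, 15.8 and 23.5 CPM at 2dpr and 13.2, 18.2, 17.6 and 11.6 CPM at 5dpr and fell with overlap (log2 fold change -0.88, adjusted p = 0.0324). Its adjusted p was 0.0768 to 0.214 without, in turn, 2dpr replicates 1 and 2 and 5dpr replicates 2 and 5. Pax7, which marks quiescent satellite cells, was at 4.92, 3.94, 3.85 and 3.83 CPM at 2dpr and 9.2, 5.76, 6.53 and 3.47 CPM at 5dpr (log2 fold change 0.58, adjusted p = 0.625). In sum, the members were at 410, 294, 333 and 419 CPM at 2dpr and 2208, 2450, 2863 and 1012 CPM at 5dpr, and Myh3 was its most abundant member per kilobase. In RefSeq promoters matched for 9 of these 14 genes, the E-box CAGCTG was found in 2 of 9 promoters (22.2%, Chrna1 and Chrng) against 16.3% of all promoters, and the MEF2 motif in 0 of 9 against 0.557%, each on both strands. Of the 4 called genes with a promoter, 0 held the E-box and 0 the MEF2 motif.

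Of 20 contraction genes of mature muscle 3 rose and 0 fell, and all 20 had a positive log2 fold change, with a median of 0.57. DESeq2 called 7 higher, and edgeR with only the 8 libraries in the fit 10. Myl1, a fast light chain, was at 658, 583, 862 and 537 CPM at 2dpr and 1701, 1412, 1577 and 1230 CPM at 5dpr, without overlap (log2 fold change 1.17, adjusted p = 0.00425). Mylpf (1.14), another fast light chain, and Casq1 (1.04), which binds calcium in the sarcoplasmic reticulum, were named after their values were seen. With libraries left out, the adjusted p of Casq1 was 0.0717 without 2dpr replicate 2 and 0.051 without 5dpr replicate 2. Acta1, the skeletal actin, was at 5157, 3495, 3581 and 3171 CPM at 2dpr and 4713, 4116, 5541 and 5433 CPM at 5dpr, with overlapping stages (log2 fold change 0.36, adjusted p = 0.576), and was the most abundant member per kilobase. Ckm (0.39, adjusted p = 0.623), Myh4 (0.38, adjusted p = 0.603) and Ttn (0.54, adjusted p = 0.37) did not pass the test. The list summed to 27640, 19400, 31560 and 23020 CPM at 2dpr and 42370, 31690, 42200 and 35520 CPM at 5dpr. A muscle score, the mean log2 CPM of this list, was 9.77, 9.16, 9.78 and 9.45 at 2dpr and 10.3, 9.88, 10.3 and 10.1 at 5dpr, without overlap. With that score as a covariate 1179 genes were called, 1072 of them among the 1707, and the median of the contraction list, from which the score was made, was -0.04. The part of muscle content in the other gene groups was not tested further.

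**Figure D3:**
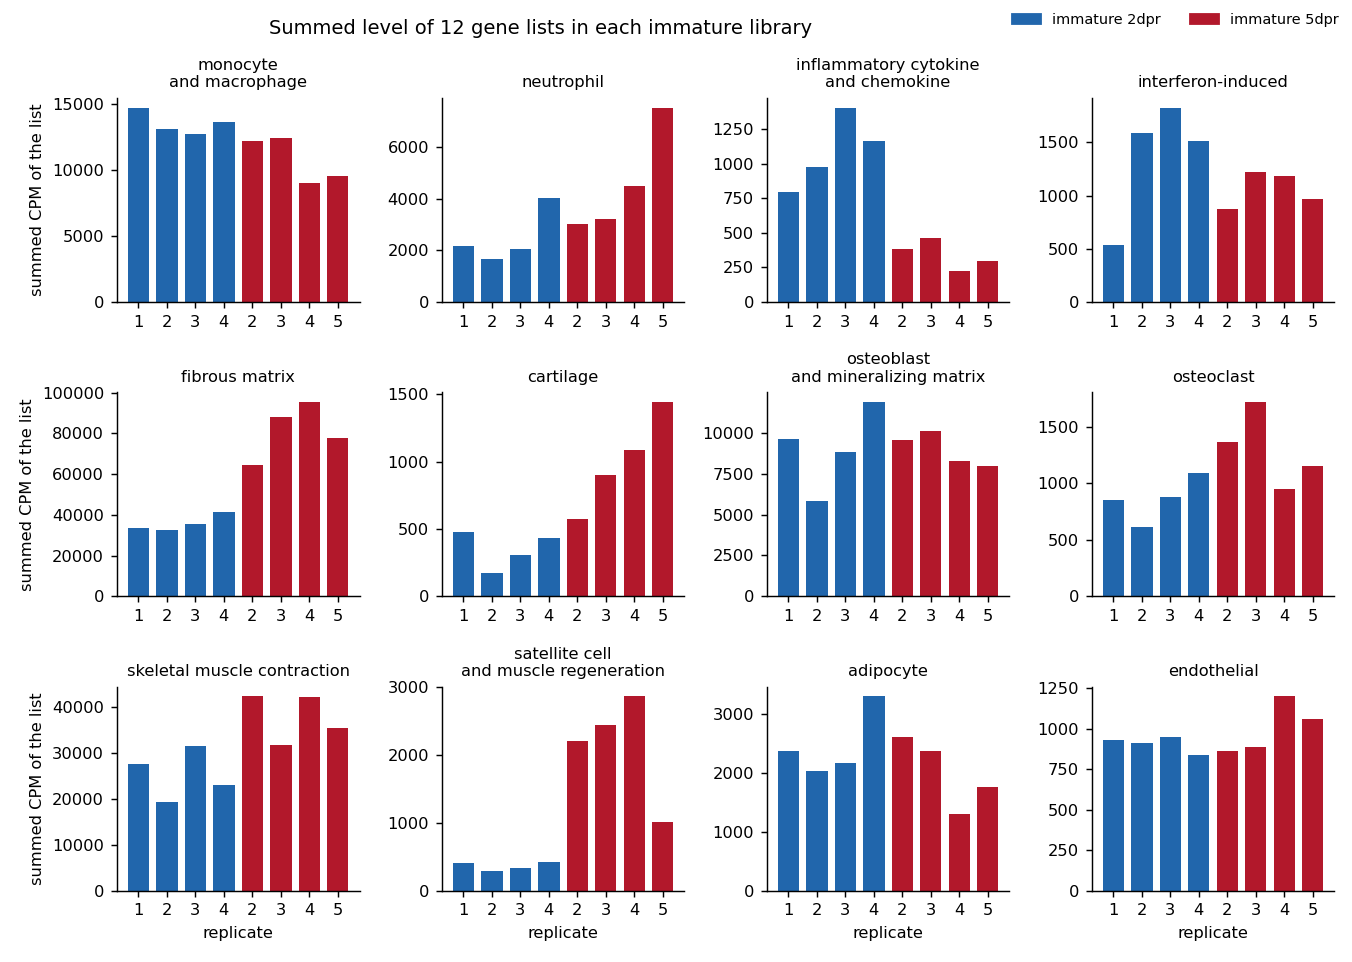
Summed CPM of 12 gene lists (vertical axes, from 0) in each immature library, with 2dpr in blue (replicates 1 to 4) and 5dpr in red (replicates 2 to 5). The chemokine sums fall from 797 CPM or more to 462 CPM or less, while fibrous matrix and muscle regeneration are higher in every 5dpr library and endothelial sums overlap.

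Vessel genes gave no calls. Of 18 endothelial genes edgeR called 0, with 1 at an unadjusted p under 0.05, and DESeq2 called 0 (median 0.23, 0.08 without 5dpr replicate 4 and 0.13 with the muscle score). Pecam1, an adhesion molecule of endothelial junctions, was at 160, 164, 165 and 150 CPM at 2dpr and 187, 157, 218 and 182 CPM at 5dpr (log2 fold change 0.22, SE 0.122, adjusted p = 0.332). Cdh5 (0.24, adjusted p = 0.469), Kdr (0.24, adjusted p = 0.461) and Apln (-0.33, adjusted p = 0.656) overlapped as well. Endothelial genes summed to 933, 914, 952 and 840 CPM at 2dpr and 860, 886, 1199 and 1058 CPM at 5dpr, and Plvap was the most abundant per kilobase. Hypoxia and glycolysis genes fell in 7 of 19 tested members, with 0 rises and a median of -0.42. Slc2a1, the glucose transporter GLUT1, was at 69.9, 68, 83.8 and 71.8 CPM at 2dpr and 43.8, 41.4, 25.8 and 34.3 CPM at 5dpr (log2 fold change -1.02, adjusted p = 0.00303). Pfkl, a phosphofructokinase of liver and leukocytes, was at 132, 127, 175 and 132 CPM at 2dpr and 60.1, 69.1, 64.9 and 61.9 CPM at 5dpr, with narrow 5dpr values (log2 fold change -1.15, adjusted p = 0.00815). Vegfa (-0.04, adjusted p = 0.965), Ldha (-0.29, adjusted p = 0.342) and Hmox1 (-0.73, adjusted p = 0.127) did not pass the test. The list counted 4 falls without 2dpr replicate 3 and 4 without 5dpr replicate 4. It summed to 8005, 7397, 9436 and 7875 CPM at 2dpr and 7033, 6431, 6169 and 6237 CPM at 5dpr, and Aldoa was the most abundant per kilobase.

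Cell cycle genes gave no calls in either phase. Of 20 genes of G2 and mitosis edgeR called 0, with 0 at an unadjusted p under 0.05, and DESeq2 called 0 (median -0.14, -0.23 without 2dpr replicate 3 and 0.13 with the muscle score). Of 20 DNA replication genes edgeR called 0, with 1 at an unadjusted p under 0.05, and DESeq2 called 0 (median -0.32, and -0.105 with the muscle score). Mki67, a marker of dividing cells, was at 321, 349, 336 and 413 CPM at 2dpr and 323, 383, 333 and 468 CPM at 5dpr (log2 fold change 0.09, SE 0.378, adjusted p = 0.947). Ccnb1 (-0.31, adjusted p = 0.74), Cdk1 (-0.26, adjusted p = 0.781), Mcm2 (-0.42, adjusted p = 0.455) and Pcna (-0.52, adjusted p = 0.233) had small negative fold changes. The G2 list summed to 1550, 1493, 1332 and 1677 CPM at 2dpr and 1328, 1396, 1424 and 1527 CPM at 5dpr, and Mki67 was its most abundant member per kilobase. DNA replication genes summed to 1280, 1155, 992 and 1230 CPM at 2dpr and 1009, 918, 892 and 914 CPM at 5dpr, with Pcna the most abundant. With only the 8 libraries in the fit, 3 genes of each of these lists were called lower. Promoters of 16 G2 genes were matched, of which 14 (87.5%) held CCAAT, against 37.4% of all promoters, and 12 (75%) held TTTGAA or TTCGAA, against 19.2%, on either strand. As 0 of these genes were called, their promoters are not printed.

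Fat and nerve markers completed the lists of other tissues. Of 16 adipocyte genes edgeR called 0, with 4 at an unadjusted p under 0.05, and DESeq2 called 2 lower (median -0.52, and -0.34 without 5dpr replicate 4). Of these genes 1 was called lower without, in turn, 2dpr replicate 2, 5dpr replicate 2 and 5dpr replicate 5, and 1 with the muscle score. With only the 8 libraries in the fit 5 were called lower. Adipoq, the adiponectin gene, was at 110, 99.1, 77.2 and 130 CPM at 2dpr and 93.9, 109, 49 and 105 CPM at 5dpr (adjusted p = 0.763), and Fabp4 (adjusted p = 0.744) and Plin1 (adjusted p = 0.587) did not pass the test. Together, its members summed to 2365, 2039, 2160 and 3295 CPM at 2dpr and 2602, 2370, 1308 and 1758 CPM at 5dpr, and Cfd was the most abundant per kilobase. Of 10 Schwann cell and myelin genes 2 fell and 0 rose (median -0.34), and 0 were called without 2dpr replicate 1 or 5dpr replicate 4. Mbp, which compacts the sheath of nerve fibers, was at 116, 88, 76.9 and 107 CPM at 2dpr and 48.7, 57.7, 45.3 and 63.9 CPM at 5dpr, lower in every 5dpr library (log2 fold change -0.85, adjusted p = 0.0127). For Mbp the adjusted p was 0.0504 without 2dpr replicate 1 and 0.0592 without 5dpr replicate 4. Sox10, the regulator of Schwann cells, had an adjusted p of 0.844. Schwann cell genes summed to 417, 328, 318 and 389 CPM at 2dpr and 239, 277, 237 and 244 CPM at 5dpr, with Pmp22 the most abundant per kilobase.

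The 12 largest rises at a mean of at least 1 CPM without overlap, beside Myh8, Myh3 and C1qtnf3, were led by genes that were nearly silent at 2dpr. Gzmd, a granzyme, was at 0, 0, 0 and 0 CPM at 2dpr and 2.22, 2, 2.8 and 2 CPM at 5dpr, a level at least 7.21-fold higher than 3 reads per library allow at 2dpr (adjusted p = 0.00242). The assignment of its reads among granzyme paralogs is uncertain, and DESeq2 gave it no adjusted p. Mest, an imprinted gene of fetal mesoderm, was at 51.4, 34.3, 26.4 and 37.8 CPM at 2dpr and 550, 518, 570 and 360 CPM at 5dpr (log2 fold change 3.74, SE 0.309, adjusted p = 5.52e-10). Actc1, the cardiac actin that regenerating skeletal muscle also makes, was at 17.6, 13.7, 18.3 and 30.9 CPM at 2dpr and 246, 337, 309 and 117 CPM at 5dpr, lowest at 5dpr in replicate 5 (log2 fold change 3.65, adjusted p = 9.67e-07). Dlk1, an imprinted membrane protein of fetal tissue, was at 1.15, 1.13, 0.921 and 1.39 CPM at 2dpr and 9.84, 19.9, 15.1 and 31.8 CPM at 5dpr (log2 fold change 4.06, adjusted p = 1.95e-06). Dcx (6.37), a microtubule protein of migrating neurons, Klf14 (4.79), Ripply1 (4.59), Chga (3.74) and Brinp3 (3.54) made up the rest. In these, the log2 fold change was 8.01 for Dcx and 6.4 for Klf14 without 2dpr replicate 1, 5.42 for Ripply1 without 2dpr replicate 3 and 2.87 for Chga without 5dpr replicate 4. DESeq2 gave Ripply1 no adjusted p. The 12 largest falls, which include Acod1, F10 and Cxcl2, held 3 predicted genes without a name. Also among them were the carbonic anhydrase Car4 (-2.46), the hydroxybutyrate receptor Hcar2 (-2.4), the neuropeptide galanin Gal (-2.37), the GTPase Rhov (-2.33) and Scgb2b26 (-2.31). Without 2dpr replicate 3, Car4 had a log2 fold change of -1.68 and an adjusted p of 0.0733, and Rhov had an adjusted p of 0.0537. With the muscle score the adjusted p of Scgb2b26 was 0.0775.

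By mean CPM the 5 most abundant transcripts at 2dpr were mt-Rnr2, Actb, Col3a1, mt-Co1 and Rmrp, a noncoding RNA of mitochondrial and ribosomal RNA processing, and mt-Rnr2 was highest in replicate 3. At 5dpr they were Col3a1, Col1a2, Col1a1, Ttn and mt-Rnr2. Actb, the cytoplasmic actin, was at 9223, 8828, 8442 and 9133 CPM at 2dpr and 5442, 6466, 5460 and 5705 CPM at 5dpr, and fell without overlap (log2 fold change -0.63, adjusted p = 0.0114, and 0.0588 with the muscle score). Rmrp had a log2 fold change of 0.19 (adjusted p = 0.906), mt-Rnr2 of -0.06 (adjusted p = 0.954) and mt-Co1 of 0.02 (adjusted p = 0.984).

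Mature mice were compared between the same stages. In them, 1731 genes rose (8.16% of genes tested) and 1353 fell (6.38%), and leaving out 5dpr replicate 4 gave 1681 called genes in all, while leaving out 5dpr replicate 1 gave 2056. With only the libraries compared in the fit 714 were called, and with the muscle score 1547. Of the 1707 genes called in immature mice, 1062 (62.2%) were called in mature mice, which is 34.4% of the mature calls, and 1061 went in the same direction. Across genes, which are not independent replicates, the log2 fold changes of the ages had a correlation of 0.348 over all tested genes and 0.734 over the genes called in immature mice. The interaction test asked whether the change differed with age, and edgeR called 0 genes (0%), with 1715 at an unadjusted p under 0.05 and a smallest adjusted p of 0.174. DESeq2 called 37. The 3 genes with the smallest p, which did not pass, were Prkg1 (log2 fold change 0.55 in immature and -1.24 in mature mice), Rab40b (1.1 and 2.77) and Ccdc141 (0.37 and 2.13). Leaving out mature 2dpr replicate 2 gave 5 called genes.

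For the gene groups, values of mature mice lay beside those of immature mice as follows. The fibrous matrix list had 22 rises in mature mice and a median of 1.83, the chemokine list 12 falls and a median of -1.67, and the muscle regeneration list 14 rises and a median of 2.33. Acan had a log2 fold change of 0.57 in mature mice (adjusted p = 0.635), and the interaction had an adjusted p of 0.601. Ibsp had a log2 fold change of -0.28 in mature mice (interaction adjusted p = 0.545). Interferon-induced genes had 1 rise, 6 falls and a median of -0.68 in mature mice. Neutrophil genes had 5 falls and a median of -0.87 in mature mice, and adipocyte genes 4 rises and a median of 0.65. Their interactions did not pass the test in any member. The interaction had an unadjusted p under 0.05 in 8 of 17 neutrophil and 9 of 16 adipocyte members, against 8.09% of all genes. Mature neutrophil sums were 3373, 1180, 6410 and 4190 CPM at 2dpr and 3021, 1999 and 1530 CPM at 5dpr. They overlapped and were highest in 2dpr replicate 3, which had a read in only 14214 genes. Mature adipocyte sums were 2091, 2338, 1525 and 1880 CPM at 2dpr and 4265, 1675 and 1956 CPM at 5dpr. Only 5dpr replicate 1 lay above the 2dpr range. Myod1 was the 1 gene called in both ages in opposite directions, at -0.88 in immature and 0.82 in mature mice (interaction adjusted p = 0.174), and was lower at 5dpr in the immature libraries described above. In immature mice it was called in 4 of the 8 fits that left out a library. With replicate number as a block its adjusted p was 0.244.

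**Figure D4:**
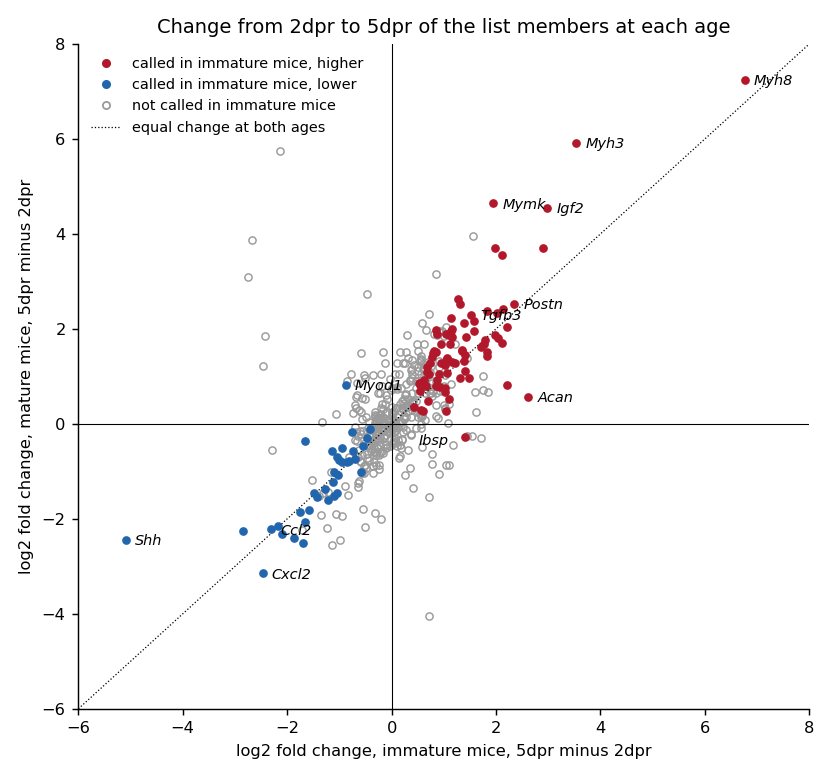
Log2 fold change from 2dpr to 5dpr in mature mice (vertical axis) against that in immature mice (horizontal axis) for the members of the 29 lists, where filled points were called in immature mice and the dotted line marks equal change. Myh8, Postn and Ccl2 lie near the line, and Acan at 2.62 in immature mice lies at 0.57 in mature mice, a difference that did not pass the interaction test.

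Over the 5 stages of the series, the genes described above had separate courses, given as mean ± SD. In immature mice, Ccl2 was at 4.49 ± 0.922 CPM at 0dpr (n = 4), 308 ± 60.1 at 2dpr and 34.3 ± 12.6 at 14dpr. Acod1 was at 74.9 ± 51.6 CPM at 2dpr (n = 4), 12.2 ± 5.41 at 5dpr and 109 ± 25.2 at 14dpr, so that its low level at 5dpr lay between higher ones. Postn was at 1393 ± 258 CPM at 2dpr (n = 4), 7107 ± 1504 at 5dpr and 4514 ± 1265 at 14dpr. Myh3 was at 58.5 ± 21.6 CPM at 2dpr (n = 4), 677 ± 274 at 5dpr and 32.3 ± 13.2 at 14dpr, so that its high level was seen at 5dpr. The other stages were not tested here.

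**Figure D5:**
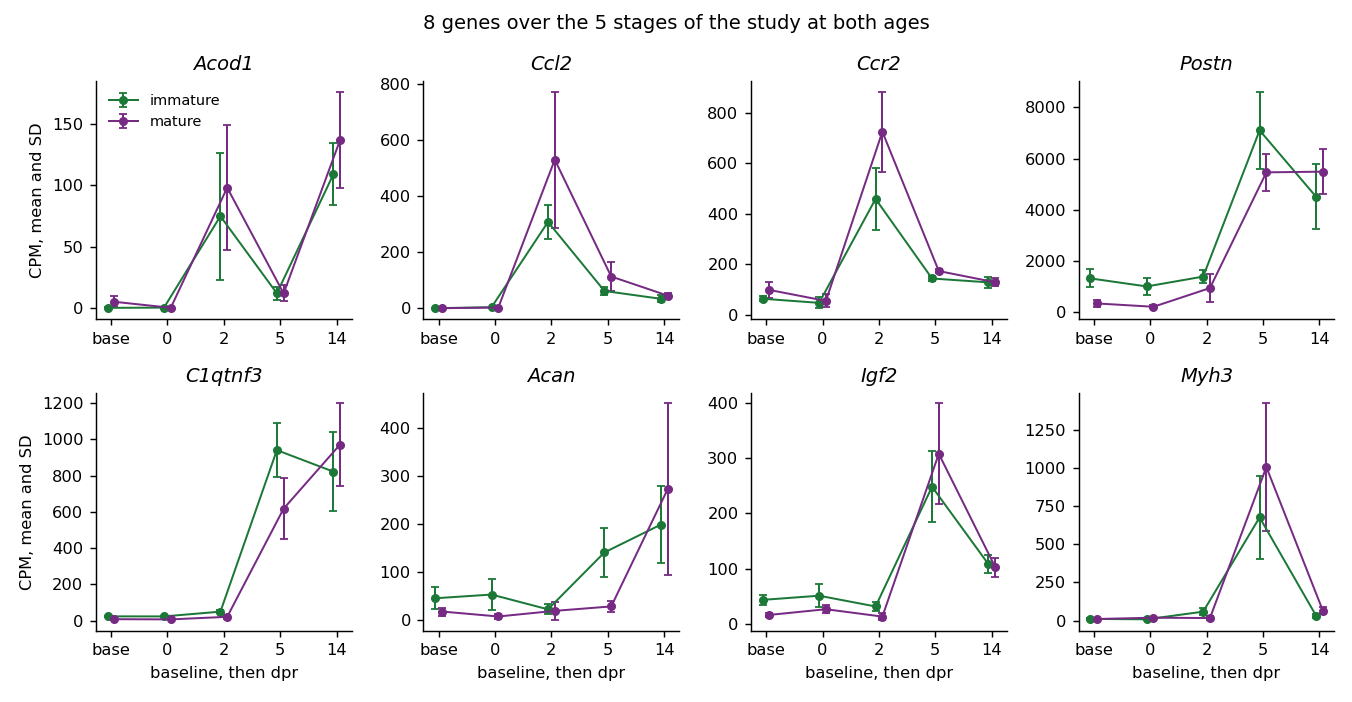
Mean CPM with SD (vertical axes) of 8 genes at baseline, 0, 2, 5 and 14dpr (horizontal axes) in immature (green, n = 4) and mature mice (purple, n = 4, with n = 3 at 5dpr). Ccl2 and Ccr2 peak at 2dpr, Acod1 is high at 2 and again at 14dpr, Igf2 and Myh3 peak at 5dpr, and C1qtnf3 is high at both 5 and 14dpr.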

How the data were processed

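RNA of whole tissue was sequenced in every library, and the baseline libraries came from before surgery. Per the submitters' processing notes, reads were aligned with STAR 2.5.2a to GRCm38 and genes were counted, and DESeq2, edgeR and limma were named for their analysis. The authors deposited a raw count table of 48733 genes and a filtered count table of 21204 genes, whose rule was not stated, with equal counts in both. The deposited signal table holds CPM, and equals the TMM CPM computed here from the filtered counts. The filtered counts were fitted in R 4.3.3 with edgeR 4.0.16 (TMM scaling, quasi-likelihood test, 1 coefficient for each age and stage, all 39 libraries). Genes were called at a Benjamini-Hochberg adjusted p under 0.05 over all genes tested. The interaction compared the change from 2dpr to 5dpr between the ages. DESeq2 1.42.0 was an alternative, beside RLE scaling, other filters, only the libraries compared, a replicate block, a muscle score as a covariate, other thresholds and leaving out each library in turn. The fits were first tested on simulated data. The shallowest of the 8 libraries held 6057756 counts, which limits the precision of genes with few reads. No duplicate was found among the 21 pairs of libraries of the same age and stage at 2dpr and 5dpr, and other pairs were not checked. In the tables, 0 per-sample columns were left unused.

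Genes named by rule were the lead genes of each list and its called member with the largest change, the 12 largest changes in each direction among called genes with a mean of at least 1 CPM and no overlap, the 5 most abundant genes of each stage, and the 3 genes with the smallest interaction p. Listed genes under 1 CPM at both stages were only counted, except Shh, which was named because it was called. Some genes within the rule are not reported here. Members and lists were chosen with earlier results of these data known. Called list members outside that rule, the lists of imprinted, tendon, granzyme and coagulation genes, and the kappaB, E-box and MEF2 motifs were chosen after values were seen. Log2 CPM used a prior count of 2, and a group with no reads was set to 3 reads per library for a lower bound of fold.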

Additional observations from a re-analysis of the deposited data

Results flagged for a closer look

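In 13 of 319 groups of 4 libraries looked at (4.08%), 1 library stood far from the 3 others, with a gap past the 95% limit of Dixon's outlier test. Chance flags about 1 in 20 groups, so the count is near what chance gives, and no cause was tested. At 2dpr, replicate 3 was high for Pfkl (175 CPM, others 127 to 132), Col3a1 (9210 CPM, others 7970 to 8150), Hcar2 (36.6 CPM, others 14.2 to 15.8) and mt-Rnr2 (15000 CPM, others 7930 to 8000). Replicate 1 of that stage was low for Ifit1 (17.5 CPM, others 74.2 to 93.6) and for the summed interferon-induced genes (539 CPM, others 1520 to 1830), and high for Pax7 (4.92 CPM, others 3.83 to 3.94). Replicate 4 was high for Postn (1780 CPM, others 1240 to 1300). At 5dpr, replicate 2 was low for Col1a2 (8000 CPM, others 13300 to 13700) and high for mt-Co1 (9050 CPM, others 6680 to 6950). Replicate 4 was high for Grem1 (10.2 CPM, others 7.51 to 7.90) and for the summed T and NK cell genes (54.4 CPM, others 34.6 to 37.3). In mature mice at 2dpr, replicate 3 had a read in 14214 genes, against 20220 to 20823 in the others.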

How the results depend on the processing

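The count of 1707 called genes in immature mice was 1704 with RLE scaling, 2216 with DESeq2, 1764 with filterByExpr, 1404 without a filter, 1179 with the muscle score and 1463 with a minimum log2 fold change of 0.5. It was 2988 with only the libraries compared, where 1463 rose and 1525 fell against 926 and 781, and 830 at an adjusted p under 0.01. In mature mice 3084 became 714 with only the libraries compared, 1547 with the muscle score and 1524 at the stricter threshold. The interaction count of 0 became 37 with DESeq2 and 6 with the muscle score, and was 0 under the other alternatives. Leaving out each library gave 1064 to 1415 genes in immature mice, 1681 to 3250 in mature mice and 0 to 5 for the interaction. A stricter threshold lowers the number of genes by construction, and for the other alternatives the cause was not tested. Of 134 named genes 56 were called, 41 of these in every leave-one-out fit and 35 in every leave-one-out fit and alternative. Over 2010 values of named genes, 1890 were labelled the same, 63 weaker, 32 stronger, 25 moved and 0 reversed. A gene called in neither fit was the same if its log2 fold change stayed within the SE of the main fit, whatever its sign. Otherwise it had moved, as had a called gene left without an adjusted p. A reversal needed a call in either fit, so a change of sign in uncalled genes was not counted.

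Libraries of the stages share only replicate numbers. The 3 same-numbered pairs had correlations of -0.132 to 0.0367 over 15668 genes, and 0 libraries correlated best with their own number. With a replicate block, 1147 genes were called in immature mice (1077 of them among the 1707, with 713 rises and 434 falls in all), 2456 in mature mice and 0 for the interaction. List medians of immature mice were then -0.171 for red cell, -0.222 for osteocyte, -0.266 for G2 and mitosis and 0.189 for TGF-beta genes. With the block the adjusted p was 0.05 or more, from 0.0563 for Rhov to 0.244 for Myod1, in these genes and in Actb (0.0686), Ank, Boc, Cd14, Csf1r, Cxcl9, F7, Gal, Ibsp, Ifi44, Irx5, Itgb3, Mrc1, Mx1, Sfrp1, Shh (0.119), Sox6, Tgfbi, Tnf, Tnfsf11, Trem2 and Twist1. Sequencing depth limits genes with few reads, of which 5067 were under 1 CPM at both stages.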

Other observations

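Imprinted growth genes, a list assembled after values were seen, rose in 12 of 18 tested members, with 0 falls and a median log2 fold change of 1.05. Besides Igf2, H19, Mest and Dlk1, the growth regulator Plagl1 was at 19.5, 25.4, 20.9 and 27.1 CPM at 2dpr and 74.2, 108, 102 and 78.1 CPM at 5dpr, so that all 5dpr libraries lay above those at 2dpr (log2 fold change 1.97, SE 0.292, adjusted p = 2.31e-05). Cdkn1c, an inhibitor of the cell cycle, was at 19, 11.6, 13 and 20.7 CPM at 2dpr and 62.3, 83.4, 76.8 and 52.3 CPM at 5dpr, again without overlap (log2 fold change 2.1, adjusted p = 1.00e-06). Peg3, a zinc finger gene, rose by 1.27 log2 units and Grb10, an adaptor that damps insulin signals, by 0.97. Peg10 did not pass the test (log2 fold change 0.2, adjusted p = 0.72). The list summed to 2419, 2223, 2376 and 2417 CPM at 2dpr and 6322, 6840, 7144 and 5019 CPM at 5dpr, and H19 was the most abundant member per kilobase.

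Tendon genes, also listed after values were seen, rose in 9 of 14 tested members and fell in 1, with a median of 1.35. Tnmd, tenomodulin of the tendon cell surface, was at 13.4, 7.43, 5.78 and 10.6 CPM at 2dpr and 84.6, 84, 107 and 64.6 CPM at 5dpr (log2 fold change 3.2, SE 0.36, adjusted p = 2.17e-07). Ptn, a heparin-binding growth factor, was at 10.2, 6.42, 7.62 and 15.1 CPM at 2dpr and 97.9, 120, 114 and 93.1 CPM at 5dpr, and every 5dpr library was far above those at 2dpr (log2 fold change 3.44, adjusted p = 5.27e-08). Itm2a (2.9) and Thbs4 (1.12) rose, the early growth response gene Egr2 fell (-1.42), and the tendon regulator Scx did not pass the test (log2 fold change 1.27, adjusted p = 0.12). The list summed to 1042, 875, 844 and 947 CPM at 2dpr and 3170, 3477, 3539 and 2741 CPM at 5dpr. Of 9 granzyme list genes tested, out of 11, 3 rose and 0 fell (median 1.44), namely Gzmd, Gzmc (3.62, adjusted p = 0.00332) and Gzme (3.51, adjusted p = 0.00535). Reads may be shared among their paralogs, and DESeq2 gave these 3 genes no adjusted p. Without 2dpr replicate 4 the log2 fold change of Gzme was 4.69. Of 10 coagulation genes made by macrophages 4 fell and 0 rose (median -0.94), namely F10, F7 (-1.6), F13a1 (-1.02) and Plau (-1.29). F13a1, the fibrin crosslinking subunit, was at 650, 881, 811 and 491 CPM at 2dpr and 314, 420, 334 and 330 CPM at 5dpr, without overlap (adjusted p = 0.00236), and the adjusted p of F7 was 0.0526 to 0.164 without, in turn, 2dpr replicates 1, 3 and 4 and 5dpr replicates 3, 4 and 5, 0.0585 with DESeq2 and 0.148 with the muscle score.

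The T cell coreceptor gene Cd8a was at 11.2, 0.113, 0.586 and 1.05 CPM at 2dpr and 1.27, 0.501, 3.87 and 0.0868 CPM at 5dpr, with its highest level in 2dpr replicate 1. These results come from 4 whole-tissue libraries at each stage of 1 sex and strain. The tissue held bone and muscle in unknown shares, and RNA levels say nothing on protein. Different animals were sampled at each stage, so that no callus was followed over time. The sequencing run of each library was not given, and its part in the results was not tested. Mature mice had 3 libraries at 5dpr. Other stages of the series were described for 8 genes only.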
